A study of Mus musculus with 8 samples.

Results

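The 5 NF-kB subunit genes and 5 genes of the IkB inhibitor family were examined in activated muscle stem cells (ASCs) of wild-type and mfn2-/- mice. The genes were chosen by symbol, with earlier results of these data known. All 10 were found among the 18877 genes of the deposited expression table. The subunits were Nfkb1, Nfkb2, Rel, Rela and Relb. The classical inhibitors were Nfkbia, Nfkbib and Nfkbie, and the nuclear IkB proteins were Bcl3 and Nfkbiz. All 10 passed the filter on low values, a mean of at least 10 normalized reads over the 8 libraries.

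RNA sequencing was performed on 4 wild-type and 4 mfn2-/- libraries, in order to learn what loss of mitofusin 2, an outer membrane protein of mitochondrial fusion, changes in cells that rebuild muscle. Mice of both groups carried a mitochondrial Dendra2 fluorescent protein and a tamoxifen-inducible Cre recombinase under Pax7, a gene of muscle stem cells, and the mfn2-/- mice carried a floxed Mfn2 allele as well. Adult mice received tamoxifen at 75 mg/kg once a day for 5 days. After a further 2 days the tibialis anterior muscle was injured with 50 µL of 1.2% BaCl2. Another 2 days later Dendra2+ CD34- cells that excluded the dead-cell stain DAPI were sorted. The age of the mice was not given, and nothing states that the 4 libraries of a group came from separate animals, so that the p-values measure only the spread between these libraries.

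NF-kB is a family of dimeric transcription factors. Rela, Relb and Rel encode subunits with a transactivation domain, while Nfkb1 and Nfkb2 encode precursors that are cut to DNA-binding subunits and that hold other subunits in the cytoplasm until then. Classical inhibitors cover the nuclear localization signals of the dimers and are degraded when cells receive inflammatory signals, and several family genes are themselves targets of NF-kB. In muscle, NF-kB activity is known to follow injury and to oppose differentiation of myoblasts.

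The kappa B element that NF-kB dimers bind was looked for near the transcription starts of the family genes. Any part of it in the changes of these genes was not tested. RefSeq promoter windows of 300 bases (250 before and 50 after the transcription start, GRCm38.p6) were present for 7 of the 10 genes, in 9 windows. The 10-letter kappa B consensus was searched by script on both strands, and overlapping matches were joined. It was found in windows of 5 of the 7 genes (Nfkb2, Rel, Nfkbia, Nfkbie and Bcl3). Among all mouse promoters of RefSeq, 9.55% of 27025 genes held it in any window. The windows of Rela and Nfkbib did not hold these letters. The 30 bases around each match are given from 5′ to 3′ on the strand of the gene, with the matched letters in capitals. For Nfkb2, which had 3 windows, the first window is shown, with 2 separate stretches.
Nfkb2, stretch 1: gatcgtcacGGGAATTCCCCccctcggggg
Nfkb2, stretch 2: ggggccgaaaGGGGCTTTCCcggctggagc
Rel: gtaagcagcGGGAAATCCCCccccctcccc
Nfkbia: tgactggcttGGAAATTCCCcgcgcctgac
Nfkbie: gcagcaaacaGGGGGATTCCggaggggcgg
Bcl3: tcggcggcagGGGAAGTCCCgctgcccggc
The stretches of Nfkb2 lay on the plus strand at chr19:46304689-46304718 and chr19:46304716-46304745. That of Rel lay on the minus strand at chr11:23771041-23771070, that of Nfkbia on the minus strand at chr12:55492657-55492686, that of Nfkbie on the plus strand at chr17:45555584-45555613 and that of Bcl3 on the minus strand at chr7:19822734-19822763. The matched letters of Nfkb2, Rel, Nfkbia and Nfkbie stood before the transcription start, and those of Bcl3 stood 3 to 12 bases into the transcript. A match of letters does not show that a dimer was bound there.

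The libraries held 1880464 to 7508215 reads assigned to genes. The targeted gene was lower in each mfn2-/- library than in each wild-type library, at 126 ± 31.4 against 229 ± 19.98 normalized reads (mean ± SD, n = 4 per group), although the limma adjusted p was 0.0848. No reads of 4 Y-linked genes were found in replicates 1 and 2 of the wild-type group or in replicates 3 and 4 of the mfn2-/- group, and 807 to 2336 were found in each of the other libraries. Both kinds were thus present, with 2 libraries each, in either group. The labels do not give the sex, and within a group the kind coincided with the replicates 1 and 2 or 3 and 4, so these cannot be told apart. All 11 muscle stem cell markers were detected, with a summed level of 10994 to 17114 normalized reads in wild-type and 30979 to 43819 in mfn2-/- libraries. Of these markers 4 were called higher and none lower by limma (4 and 1 at an unadjusted p under 0.05 and by DESeq2, 4 and 0 by edgeR), with a median log2 change of 0.26, and Sdc4 alone gave 4271 ± 1529 and 17473 ± 3953 of the sums. Fibroadipogenic markers summed to 200370 to 257586 in wild-type and 5283 to 9552 in mfn2-/- libraries, with 12 of 13 lower, and tenocyte markers to 38669 to 60889 and 306 to 415, with 9 of 9 lower. The part of this difference in the results on the NF-kB genes and on the other pathway genes was not tested. Fewer cells of a type cannot be told apart from less RNA per cell in such samples.

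NF-kB genes were higher in mfn2-/- ASCs. By limma on log2(value + 1), 8 of the 10 genes were higher at an adjusted p under 0.05 (Benjamini-Hochberg over 11754 genes), against 3.99% of all genes tested. None of the 10 was lower by limma, against 6.36% of all genes tested, nor by edgeR or DESeq2, which called 657 and 1090 genes lower. At an unadjusted p under 0.05 by limma all 10 were higher and none lower. The share of all genes at that threshold was not taken. The median log2 change of the 10 genes was 1.50, with a range of 0.81 to 2.14, and the median over all genes tested was -0.16. In 8 of the 10 genes every mfn2-/- library lay above every wild-type library, a pattern seen in 7.36% of all genes tested. For a single gene the exact permutation test over 70 arrangements of 4 against 4 cannot go below p = 0.0286, and these 8 genes reached that value.

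**Figure D1:**
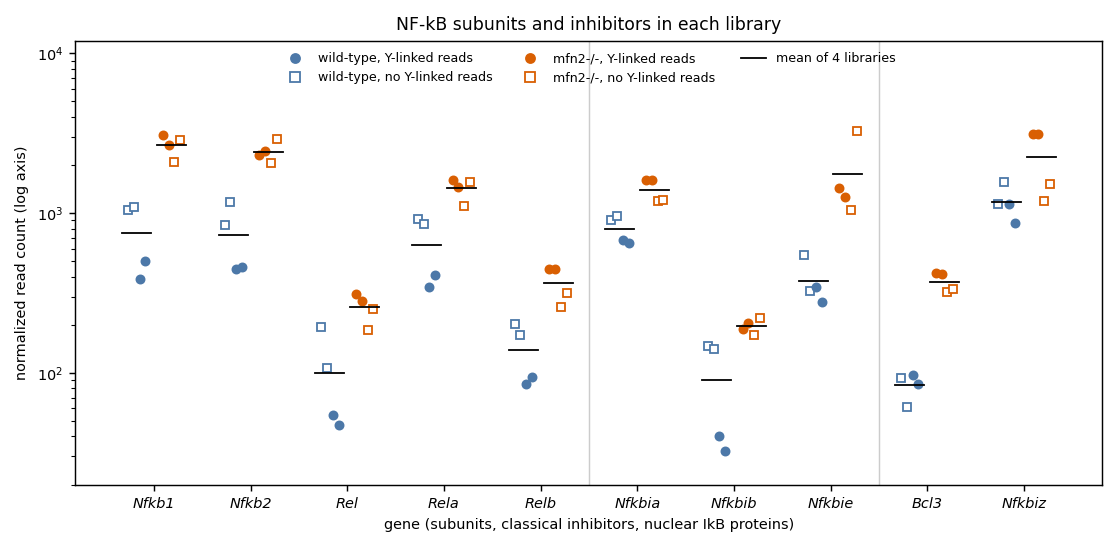
Normalized read counts (log axis) of the 10 genes in each of the 8 libraries, with subunits, classical inhibitors and nuclear IkB proteins separated by grey lines. Filled circles are libraries with Y-linked reads, open squares those without, and black bars the mean of 4. The groups overlapped for Rel and Nfkbiz and were apart for the other 8 genes.

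Both precursor genes rose more than 3-fold. Nfkb1 (chromosome 3, 135584655 to 135691547, minus strand of GRCm38 in GENCODE M21) was measured at 1044, 1089.9, 389.6 and 502 normalized reads in wild-type replicates 1 to 4 and at 3099.7, 2653, 2094 and 2886 in mfn2-/- replicates 1 to 4. The lowest mfn2-/- library was above the highest wild-type library, and wild-type replicates 1 and 2 were above replicates 3 and 4. The mean rose from 756 ± 362 to 2683 ± 433, or 3.55-fold (log2 change 1.95, SE 0.31, limma adjusted p = 0.00133).

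Nfkb2 (chromosome 19, 46304320 to 46312385, plus strand), whose processed product pairs with the RelB subunit in the noncanonical branch, was measured at 844, 1182, 449.98 and 461 normalized reads in wild-type and at 2322, 2442, 2053 and 2906 in mfn2-/- replicates 1 to 4. Again the groups did not overlap, and the mfn2-/- libraries lay close to each other. The mean rose from 734 ± 350.3 to 2431 ± 356, or 3.31-fold (log2 change 1.84, SE 0.29, limma adjusted p = 0.00124).

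The 3 subunits with a transactivation domain rose as well, by less. Rela (chromosome 19, 5637483 to 5648130, plus strand), the main activating subunit of the canonical branch, was measured at 919, 859, 344 and 408 normalized reads in wild-type and at 1617, 1465, 1111 and 1563 in mfn2-/- replicates 1 to 4. The groups did not overlap, but wild-type replicate 1 was nearer to mfn2-/- replicate 3 than to wild-type replicates 3 and 4. The mean rose 2.28-fold, from 632 ± 298 to 1439 ± 227 (log2 change 1.30, SE 0.31, limma adjusted p = 0.0160). The call was lost without wild-type replicate 3 (adjusted p = 0.0505) and without wild-type replicate 4 (0.0532).

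Relb (chromosome 7, 19606217 to 19629438, minus strand), the subunit of the noncanonical branch, was measured at 202, 172, 84.9 and 94.6 normalized reads in wild-type and at 448, 446, 257 and 317 in mfn2-/- replicates 1 to 4. Each mfn2-/- library was above each wild-type library, and mfn2-/- replicates 1 and 2 were above replicates 3 and 4. The change was 2.65-fold (log2 change 1.46, SE 0.35, limma adjusted p = 0.0182). It was lost without wild-type replicate 3 or 4 or mfn2-/- replicate 1 or 2, at adjusted p of 0.0561 to 0.0644.

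Rel (chromosome 11, 23736847 to 23770970, minus strand), best known from lymphocytes, had the lowest mean counts and the highest limma adjusted p of the subunits. It was measured at 193, 107, 54.7 and 47.0 normalized reads in wild-type and at 311, 280.5, 184 and 251 in mfn2-/- replicates 1 to 4. The groups overlapped, since wild-type replicate 1 was above mfn2-/- replicate 3. The change of 2.55-fold passed by limma (log2 change 1.55, SE 0.45, adjusted p = 0.0433), the exact permutation test gave p = 0.0571, and edgeR on the recovered reads gave an adjusted p of 0.0531. The call was lost on leaving out any one library other than wild-type replicate 1, with adjusted p from 0.0529 to 0.117.

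Among the classical inhibitors, Nfkbie showed the largest change and Nfkbia the smallest. Nfkbie (chromosome 17, 45555703 to 45563169, plus strand), which encodes IkB epsilon, was measured at 550.4, 326, 347 and 278 normalized reads in wild-type and at 1439, 1265, 1039.8 and 3277 in mfn2-/- replicates 1 to 4. The groups were far apart, and mfn2-/- replicate 4 stood above the other 3 libraries of its group. The mean rose from 375 ± 120.3 to 1755 ± 1027, or 4.68-fold (log2 change 2.12, SE 0.33, limma adjusted p = 0.00123).

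Nfkbia (chromosome 12, 55489410 to 55492647, minus strand), which encodes IkB alpha, the inhibitor that NF-kB itself induces as feedback, was measured at 909.7, 953, 683 and 647 normalized reads in wild-type and at 1602, 1605, 1189 and 1202 in mfn2-/- replicates 1 to 4. No libraries overlapped between the groups. The mean rose 1.75-fold, from 798 ± 155 to 1399.6 ± 235 (log2 change 0.81, SE 0.20, limma adjusted p = 0.0216). Leaving out wild-type replicate 3 or 4 or mfn2-/- replicate 1 or 2 ended the call, at adjusted p of 0.0681 to 0.0746.

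Nfkbib (chromosome 7, 28758251 to 28767512, minus strand), which encodes IkB beta, was measured at 148, 141, 40.02 and 32.6 normalized reads in wild-type and at 188, 206, 173 and 222 in mfn2-/- replicates 1 to 4. Wild-type replicates 1 and 2 were near the mfn2-/- libraries and replicates 3 and 4 far below them. The groups did not overlap, and the exact permutation test gave p = 0.0286, but the limma test was not passed (log2 change 1.43, SE 0.51, adjusted p = 0.102).

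The nuclear IkB proteins differed in how steady their change was. Bcl3 (chromosome 7, 19808462 to 19822770, minus strand), a coregulator of dimers without a transactivation domain, was measured at 93.2, 61.2, 97.2 and 85.5 normalized reads in wild-type and at 420.1, 415, 319.8 and 337 in mfn2-/- replicates 1 to 4. Both groups were tight, and the lowest mfn2-/- library was above the highest wild-type library by more than the range of either group. The mean rose from 84.3 ± 16.1 to 373 ± 51.9, or 4.43-fold (log2 change 2.14, SE 0.30, limma adjusted p = 0.000577).

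Nfkbiz (chromosome 16, 55811375 to 55838899, minus strand), which encodes IkB zeta, a coactivator of secondary inflammatory genes, was measured at 1146, 1559.7, 1145 and 867 normalized reads in wild-type and at 3122, 3111, 1186 and 1515 in mfn2-/- replicates 1 to 4. Replicates 1 and 2 of the mfn2-/- group stood apart, and replicates 3 and 4 lay within the wild-type range. The difference did not pass (log2 change 0.82, SE 0.31, limma adjusted p = 0.114; exact permutation p = 0.0857). Without mfn2-/- replicate 3 the limma adjusted p was 0.0403, while leaving out any other library gave 0.0745 to 0.260. The highest value was that without mfn2-/- replicate 2.

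The 2 kinds of library were then compared, with 2 wild-type and 2 mfn2-/- libraries in each and 1 spread estimated over all 8. Within the libraries with Y-linked reads all 10 genes were called higher, against 4.82% of all genes tested, with log2 changes of 1.27 to 2.69. Within the libraries without Y-linked reads 4 of the 10 were called, against 3.59% of all genes tested. These were Nfkb1 at a log2 change of 1.20 (adjusted p = 0.00606), Nfkb2 at 1.29 (0.00585), Nfkbie at 2.12 (0.0175) and Bcl3 at 2.11 (0.00924), all by limma. The other 6 had log2 changes of 0.36 (Nfkbia), 0.44 (Nfkbib), 0.57 (Rela), 0.58 (Rel), 0.61 (Relb) and 0.00 (Nfkbiz) there, and none passed by limma, while Rela and Nfkbia had an unadjusted p under 0.05.

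The difference itself was tested with limma as an interaction. In 9 of the 10 genes the change was larger among libraries with Y-linked reads, a direction whose share over all genes was not taken. In 3 of the 10 this difference passed, against 1.21% of all genes tested. It was 1.49 on the log2 scale for Nfkb1 (SE 0.29, adjusted p = 0.0348), 1.47 for Rela (SE 0.30, adjusted p = 0.0431) and 1.64 for Nfkbiz (SE 0.29, adjusted p = 0.0250). Bcl3 and Nfkbie gave differences of 0.08 (SE 0.55) and -0.01 (SE 0.63), and SEs of this size cannot show that the changes were equal. For Nfkbie the mfn2-/- libraries without Y-linked reads were replicates 3 and 4, at 1039.8 and 3277 normalized reads. This replicate 4 had a read in 9646 genes, against 12613 to 15270 in the other libraries.

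**Figure D2:**
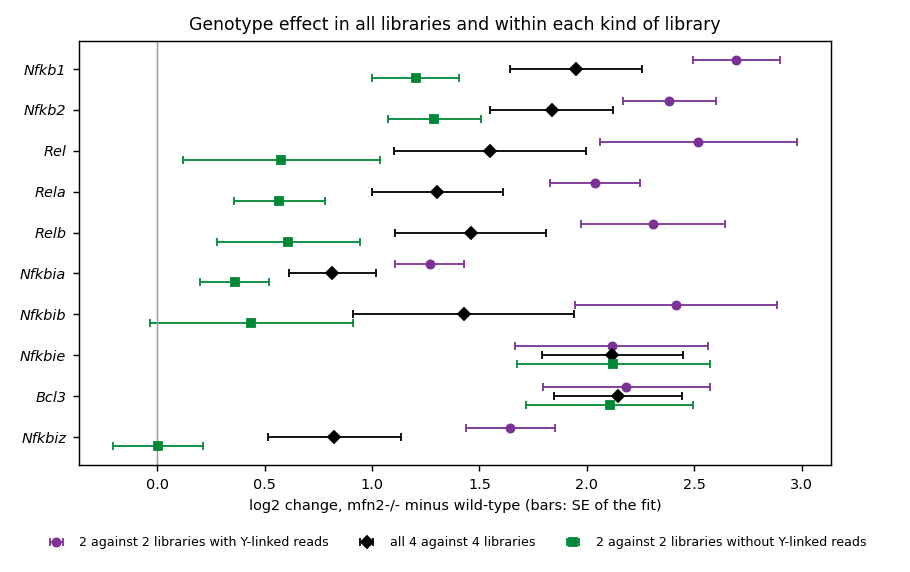
Log2 change of the 10 genes, mfn2-/- minus wild-type, over all libraries (black diamonds), within libraries with Y-linked reads (purple circles) and within those without (green squares), with bars for the SE of the limma fit. The circles lie between 1.27 and 2.69, while the squares lie between 0.00 and 2.12, and only for Nfkbie and Bcl3 do all 3 marks coincide.

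The kinds also differed inside the wild-type group. In 8 of the 10 genes both wild-type libraries without Y-linked reads were above both of those with them, against 22.2% of all genes tested, and the median log2 difference of the 10 genes was 1.09, against -0.11 for all genes tested. Nfkbib was 3.98 times as high and Nfkb1 2.39 times as high in the former. In 5 of the 10 genes both mfn2-/- libraries without Y-linked reads were below both of those with them, against 26.5% of all genes tested. In this group the median difference of the 10 genes was -0.28, against -0.21 for all genes tested, and Nfkbiz was at 0.433 of its level in the libraries with Y-linked reads. The summed level of 18 genes known to respond to tissue dissociation was 256268 and 267216 in wild-type replicates 1 and 2, 191709 and 183202 in replicates 3 and 4, 420104 and 411369 in mfn2-/- replicates 1 and 2, and 224456 and 227494 in replicates 3 and 4. Of these genes 3 were called higher and none lower by limma, beside 3.99% and 6.36% of all genes tested. The numbers were 7 and 2 at an unadjusted p under 0.05, 4 and 0 by edgeR, and 7 and 2 by DESeq2. The median log2 change of the 18 was 1.19 within libraries with Y-linked reads and -0.16 within those without. Within the libraries without Y-linked reads none of the 18 was called higher and 6 were called lower by limma (3 and 8 at an unadjusted p under 0.05). Of all 11754 genes tested 422 were called higher and 733 lower there. Muscle stem cell markers summed to 17114 and 16372 in wild-type replicates 1 and 2 and to 11422 and 10994 in 3 and 4. Fibroadipogenic markers summed to 211575 and 200370 against 257586 and 246494, and tenocyte markers to 38669 and 39717 against 60889 and 58084. In mfn2-/- replicates 1 to 4 the stem cell sums were 31336, 30979, 35795 and 43819, and the fibroadipogenic sums 9552, 9413, 5656 and 5283. The part of the 18 genes and of these markers in the changes of the NF-kB genes was not tested.

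Levels of different genes were compared after division by exon length. In wild-type ASCs Nfkbia had the highest length-scaled level, at 496 ± 96.5 normalized reads per kb of exon (SD, n = 4). It was followed by Nfkbiz (235 ± 56.9), Rela (206 ± 97.1), Nfkb2 (160.2 ± 76.4), Nfkbie (123 ± 39.5), Nfkb1 (62.7 ± 30.0), Nfkbib (41.7 ± 28.8), Relb (35.7 ± 14.9), Bcl3 (34.0 ± 6.52) and Rel (13.5 ± 9.02). Among neighbours in this order the library ranges were apart for Nfkbia above Nfkbiz and for Nfkbie above Nfkb1, and overlapped for the other 7 pairs.

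In mfn2-/- ASCs Nfkbia again led, at 869 ± 146 normalized reads per kb of exon, ahead of Nfkbie (576 ± 337), Nfkb2 (530.3 ± 77.7), Rela (468 ± 74.0), Nfkbiz (445 ± 205) and Nfkb1 (222 ± 35.9). Lower came Bcl3 (151 ± 20.96), Relb (94.5 ± 24.6), Nfkbib (91.0 ± 9.76) and Rel (34.4 ± 7.24). Only the steps from Nfkb1 to Bcl3, from Bcl3 to Relb and from Nfkbib to Rel were without overlap of the library ranges. Nfkbie stood above Nfkb2 and Rela in mfn2-/- replicate 4 (1076 against 634 and 509) and below both in the other 3 mfn2-/- libraries, so that its place in the order of means rests on that library. Exon lengths covered all annotated isoforms of a gene, so that a gene with unused exons is placed too low.

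**Figure D3:**
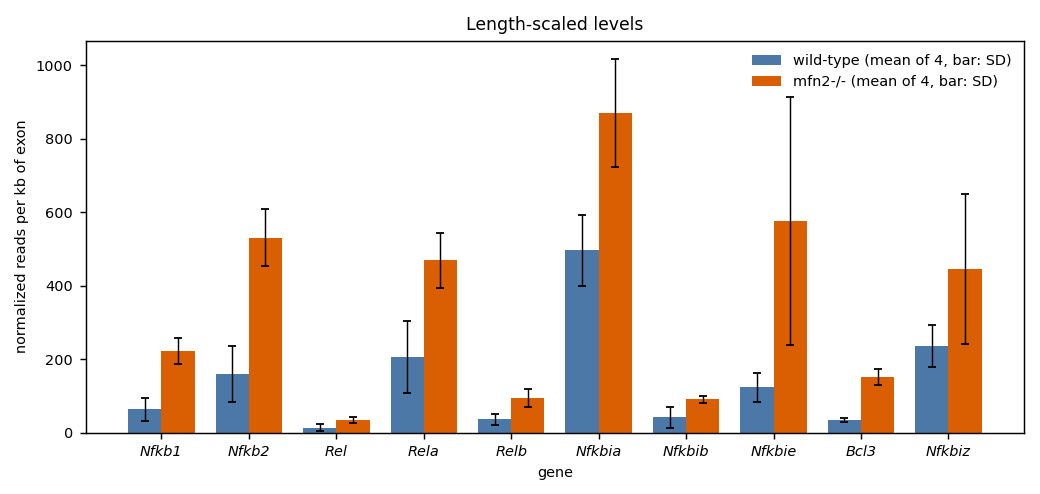
Length-scaled levels of the 10 genes in normalized reads per kb of exon (linear axis from 0), as the mean of 4 wild-type and 4 mfn2-/- libraries with SD bars. Nfkbia was highest in both groups, at 496 and 869, and Rel lowest, at 13.5 and 34.4.

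The make-up of the subunit pool was then described, with no test. Of the summed length-scaled level of the 5 subunits, Rela accounted for 42.9% ± 2.49 in wild-type and 34.6% ± 1.21 in mfn2-/- libraries (SD, n = 4). The share of Nfkb1 was 13.0% ± 0.770 and 16.5% ± 0.878, and that of Nfkb2 33.8% ± 4.06 and 39.4% ± 3.36. For Rela and Nfkb1 the ranges of the groups did not overlap, while those of Nfkb2, Relb and Rel did. The ratio of Nfkb1 to Rela was among the steadiest values, at 0.289 to 0.323 in wild-type and 0.461 to 0.488 in mfn2-/- libraries, including both kinds of library.

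Among the 3 classical inhibitors, Nfkbia made up 75.6% ± 4.26 of the length-scaled level in wild-type and 58.2% ± 13.0 in mfn2-/- libraries, and Nfkbie 18.7% ± 3.57 and 35.8% ± 13.4. These shares did not overlap between the groups, and the highest share of Nfkbie, 55.9%, was that of mfn2-/- replicate 4. The summed inhibitors stood to the summed subunits as 1.52 ± 0.423 in wild-type and 1.13 ± 0.102 in mfn2-/- libraries, with overlapping ranges of 1.11 to 2.05 and 1.07 to 1.29. These values are transcript levels and hold no information on protein or on the place of the dimers in the cell.

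The 10 genes moved together over the libraries. Pearson's r of log2(value + 1) between pairs was 0.55 to 0.99 with a median of 0.88 (45 pairs, 8 libraries), a description that includes the genotype difference. Of all genes averaging 100 or more normalized reads, those with the pattern most like Nfkb1 were Asb4 (r = 0.994), Hivep2 (0.992) and Ythdc1 (0.992). The nearest to Nfkb2 were Hivep2 (0.995), Ppme1 (0.988) and Skil (0.986), and the nearest to Nfkbiz were Ppp1r15a (0.982), Btg2 (0.980) and Adarb1 (0.979), each over the 8 libraries.

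The other genes of the pathway were taken from 6 lists by role. Of 146 listed genes 109 were tested, and 19 were called higher and 5 lower, beside 3.99% and 6.36% of all genes tested. The median log2 change of the 109 was 0.47, against 1.50 for the 10 NF-kB genes and -0.16 for all genes tested.

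Ligands were scarce. Of 14 listed cytokines only 2 passed the filter, and Tnf and Il1b were among the 8 in the table that did not. Il33, an alarmin, fell from 167 ± 75.5 to 15.9 ± 12.1 normalized reads (limma adjusted p = 0.0313), a call lost without wild-type replicate 1, 2 or 4 (0.0826 to 0.0908). Tnfsf12, the ligand of Tnfrsf12a, was at 13.5 ± 11.8 and 25.2 ± 25.4 and did not pass.

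Of 13 receptors tested 4 rose (30.8%), against 3.99% of all genes called higher, and 1 fell, near the share of 6.36% called lower. Those that rose were Tnfrsf1a (the main TNF receptor, log2 change 1.22), Il1r1 (the signalling receptor of interleukin 1, 1.50), Tnfrsf12a (1.64) and the death receptor Fas (1.82). The number called higher was 1 without mfn2-/- replicate 1 or 3, 2 without mfn2-/- replicate 2 or wild-type replicate 3 or 4, and 1 without the intensity trend. Tnfrsf1a and Tnfrsf12a lost their calls in each of these 5 omissions (adjusted p of 0.0552 to 0.0873 and 0.0932 to 0.122), and Fas in those of mfn2-/- replicates 1 and 3 (0.0566 and 0.0514). Ngfr, a neurotrophin receptor also found on glia, fell by 3.34 on the log2 scale (SE 0.64, limma adjusted p = 0.00531). The median of the list was 0.63, and Ltbr, the lymphotoxin receptor, was not called (log2 change 0.38).

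Between receptor and kinase, 4 of 25 adaptors and ubiquitin ligases rose (16%, against 3.99% of all genes tested), with a median log2 change of 0.09. Those that rose were Ripk1 (1.63), Birc3 (1.64), Bcl10 (1.33) and Birc2 (0.96). None was lower by limma or edgeR at an adjusted p under 0.05, 2 were by DESeq2, and 2 were at an unadjusted limma p under 0.05. Birc2 lost its call on leaving out any one library other than wild-type replicate 4 or mfn2-/- replicate 3 (adjusted p of 0.0614 to 0.102), and the adaptor Myd88 was at 1.03 and did not pass (limma adjusted p = 0.113). Of 13 kinases 2 rose (15.4%, against 3.99% of all genes tested). Map3k14, the NF-kB-inducing kinase of the noncanonical branch, rose by 1.40 on the log2 scale (SE 0.22, limma adjusted p = 0.00115), and Tbk1 by 0.88. The call of Tbk1 was lost on leaving out any one library other than wild-type replicate 2 or mfn2-/- replicate 4 (adjusted p of 0.0669 to 0.112). Tab2, an adaptor of the upstream kinase complex, was at 0.65 and was not called. Birc2, Birc3 and Map3k14 are known partners, since the ubiquitin ligases encoded by the former mark the kinase encoded by the latter for degradation.

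Of 15 genes that restrain the pathway 3 rose (20%, against 3.99% of all genes tested), with a list median of 0.29. These were the ubiquitin-binding Tax1bp1 (log2 change 0.72) and Tnip1 (1.52) and the ribonuclease Zc3h12a (1.93). Tax1bp1 lost its call without wild-type replicate 3 or 4 or mfn2-/- replicate 3 (adjusted p of 0.0590 to 0.0806), and Zc3h12a without mfn2-/- replicate 2 (0.0525). Tnfaip3, the deubiquitinase induced as feedback, was at 2093 ± 826 and 3288 ± 432 normalized reads and did not pass (limma adjusted p = 0.0973).

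Of 41 known targets 6 were higher and 3 lower, with a median log2 change of 0.53, beside 3.99% of all genes called higher and 6.36% called lower. Hif1a rose by 1.85 (SE 0.20, limma adjusted p = 7.97e-05), and the adhesion molecules Vcam1 and Icam1 by 1.21 and 1.09. Sdc4 rose by 2.08, and it stands with Vcam1 on the list of muscle stem cell markers. Ptgs2, an inducible prostaglandin synthase, fell from 571 ± 147 to 12.2 ± 8.27 normalized reads (limma adjusted p = 0.000603), and Tapbp, a chaperone of antigen presentation, fell by 1.10 on the log2 scale. The call of Tapbp was lost in 17 of 24 alternatives, among them scaling to equal totals (adjusted p = 0.0531), upper-quartile scaling (0.0815), quantile normalization (0.0524), the replicate block (0.0794) and the omission of any one library other than wild-type replicate 1 (0.0533 to 0.134). The third that fell, Ptges, which was named after its values were seen, makes prostaglandin from the product of Ptgs2 and was at 174 ± 116 and 4.72 ± 6.31. The part of the lower fibroadipogenic and tenocyte markers in these 3 falls was not tested. Junb was at a log2 change of 0.33 and was not called.

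**Figure D4:**
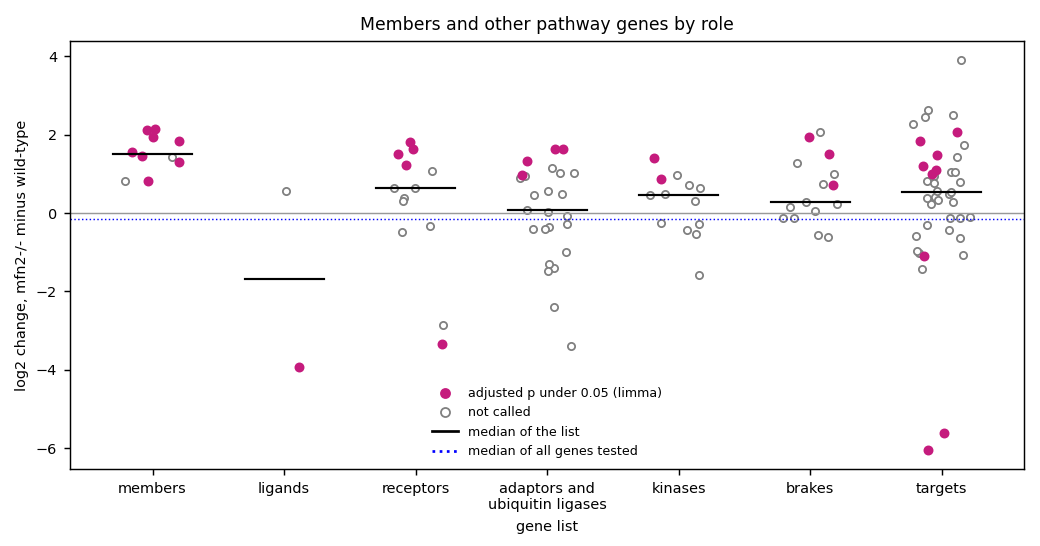
Log2 change, mfn2-/- minus wild-type, of the 10 NF-kB genes (leftmost, "members") and of the tested genes of 6 pathway lists, with filled points for an adjusted p under 0.05 by limma, black bars for list medians and a dotted line for the median of all genes tested (-0.16). The NF-kB genes all lie above 0, with a median of 1.50, while the other lists spread to both sides.

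Markers of blood cells, which express NF-kB genes strongly, had few reads. The macrophage markers summed to 60.9 to 159 normalized reads in wild-type and 113 to 206 in mfn2-/- libraries, with none of the 6 tested called by limma, edgeR or DESeq2 (1 at an unadjusted p under 0.05 by limma). The median log2 change of these 6 was 0.76, with 0.65 among libraries with Y-linked reads and 1.60 among those without. The neutrophil and lymphocyte markers did not pass the filter on low values, with sums of at most 50.8 and 38.7 in any library. Endothelial markers summed to 1251 to 1946 and 1479 to 2396, with none of 11 called by limma, edgeR or DESeq2, nor at an unadjusted p under 0.05 by limma. Mural markers summed to 4181 to 5307 and 2575 to 4221 (1 of 8 higher, 3 lower), and glial markers to 2095 to 3701 and 1819 to 2486 (1 of 6 lower). The summed level of the 5 subunits alone was 1323 to 3410 in wild-type and 5699 to 7924 in mfn2-/- libraries. The part of these cell types in the levels of the NF-kB genes was not tested.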

How the data were processed

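The deposited table gives a signal for each of 18877 gene symbols in each library, which is a linear normalized read count. Trim Galore, HISAT2, featureCounts and DESeq2 and the build mm9 are named in the submitters' processing notes, and the annotation and the tool versions are not given in the sources used here. Every library's values (100%) came out as whole reads, within a tolerance of 0.1, once divided by the smallest step of that library, so the authors had divided its reads by 1 size factor. One read was worth 0.534 to 2.27 normalized reads, and the 10 genes had between 41 and 4682 reads per library.

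Genes with a mean of at least 10 entered limma 3.58.1 (R 4.3.3), fitted to log2(value + 1), which understates changes of weak genes, with an intensity trend, two-sided, and Benjamini-Hochberg adjustment over 11754 genes. Exact permutation tests of single genes were two-sided. Alternatives were other scalings, pseudocounts, filters, thresholds, variance settings, a replicate block, a term for the kind of library, each library left out, and edgeR 4.0.16 (quasi-likelihood) and DESeq2 1.42.0 on recovered reads. The scripts were tested on simulated data. Exon lengths and coordinates were from GENCODE M21 (GRCm38), since the table has none, and promoters from RefSeq (GRCm38.p6). The rule named all 10 genes, the most abundant called genes of each pathway list (up to 4 higher and 2 lower) with its most abundant gene not called, and the 3 genes nearest in pattern to the 3 most abundant of the 10. The genes and lists were chosen with earlier results of these data known.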

Additional observations from a re-analysis of the deposited data

Results flagged for a closer look

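Of the named genes, Nfkb1, Rela and Nfkbiz differed in their genotype change between libraries with and without Y-linked reads by a limma interaction, by 1.49, 1.47 and 1.64 on the log2 scale. The same test singled out 5 pathway genes: Tnfrsf12a (difference 2.30, adjusted p = 0.0433), Ripk1 (1.56, 0.00850), Birc3 (2.06, 0.00618), Tnfaip3 (1.27, 0.0173) and Junb (1.30, 0.0108). Junb was 0.98 higher on the log2 scale in mfn2-/- among libraries with Y-linked reads (limma adjusted p = 0.00137), and its change among those without was -0.32 and did not pass (adjusted p = 0.167), with 2 libraries a group. Over all genes tested 173 passed.

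A single library stood far from the other 3 of its group by Dixon's ratio in 3 of 78 groups of values, where chance gives about 3.9. Il1r1 was at 435.6 normalized reads in wild-type replicate 2 and at 259 to 269.5 in the others. Bcl10 was at 845 in mfn2-/- replicate 4, against 480.5 to 527. Ptges was at 346 in wild-type replicate 1, against 98.0 to 140.0. The value of Nfkbie in mfn2-/- replicate 4 did not meet this rule.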

How the results depend on the processing

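Nfkb1, Nfkb2, Nfkbie and Bcl3 were called higher under all 24 alternatives, and none of the 10 genes changed direction. Rel lost its call in 13, Relb and Nfkbia in 7 each and Rela in 5, while Nfkbiz gained one in 5 and Nfkbib in 2. Among the 10, the genes called higher numbered 4 without the intensity trend, 4 at an adjusted p under 0.01, 4 within the libraries without Y-linked reads, and 4 to 8 with each library left out (4 without wild-type replicate 3 or 4, 5 without mfn2-/- replicate 1 or 2).

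Over all genes tested 1217 were called, 469 higher and 748 lower. Without the trend there were 633 in all and 113 higher, with library weights 3037, 1398 higher and 1639 lower, and at an adjusted p under 0.01 498, 152 higher and 346 lower. Upper-quartile scaling called 840 higher and raised the share of calls that were higher from 38.5% to 57.5%, and it moved the median of all genes by 0.21 on the log2 scale (0.29 with quantile normalization). Within the libraries with Y-linked reads 439 were lower. Leaving out each library gave 671 to 1331 in all, 235 to 489 higher and 436 to 842 lower, with the fewest without wild-type replicate 3. Of the pathway genes 19 were higher and 5 lower. The higher numbered 7 without the trend, 44 with library weights, 10 within the libraries without Y-linked reads and 11 at an adjusted p under 0.01, and the lower 11 with library weights, 9 by DESeq2, 3 within the libraries with Y-linked reads, 3 at 0.01 and 3 to 5 with each library left out. Except where fewer libraries or a stricter threshold enter, the cause was not tested. With each library left out Tnfsf12 ranged from -0.45 to 1.79, and it was reversed on omission of wild-type replicate 1 (-0.45) or mfn2-/- replicate 1 (-0.18), and Junb reversed to -0.32 within the libraries without Y-linked reads.

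Same-numbered libraries did not deviate together (r from -0.11 to 0.04 over 4 pairs, and 0 of 4 wild-type libraries correlated best with their own number), so the numbers were not taken as pairs. With the replicate block 9 of the 10 genes, 434 genes in all and 21 pathway genes were called higher, and 609 and 6 lower, with Nfkbiz at an adjusted p of 0.0471.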

Other observations

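Of the 18 dissociation-response genes, the 3 called higher were Egr2 (log2 change 0.91, limma adjusted p = 0.0274), the chaperone gene Hsph1 (1.22, 0.0411) and Hspe1 (1.07, 0.0199), chosen here after their values were seen. Within the libraries with Y-linked reads their log2 changes were 1.53, 2.16 and 1.52, and within those without 0.28, 0.28 and 0.62. The whole list of 18 had medians of 1.19 and -0.16 in these kinds. Among libraries without Y-linked reads 6 of the list were called lower and none higher by limma, so these 3 do not stand for it. Of the genes nearest in pattern to Nfkb1, Nfkb2 and Nfkbiz, Asb4 (log2 change 2.67), Ythdc1 (1.04), Ppme1 (1.16) and Skil (1.57) were themselves called higher, and Hivep2, Ppp1r15a, Btg2 and Adarb1 were not.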
